A study of Mus musculus with 24 samples.

Results

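MicroRNAs (miRNAs) of hypothalamic tissue were compared between aged and young mice. The 6 libraries are the small RNA libraries of hypothalamus among the 24 samples of the series. Both groups were male mice of the C57BL/6J strain, 3 of them 2 months old (young mice 1 to 3) and 3 of them 15 months old (aged mice 4 to 6), with 1 library per mouse. The other samples were 6 small RNA libraries of hippocampus and the messenger RNA (mRNA) libraries of both tissues. The comparison asks which mature miRNAs differed in abundance with age, and whether they did so by seed family, by genomic cluster or by arm of the hairpin.

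A miRNA is cut from a hairpin transcript whose 5′ and 3′ strands give the 5p and the 3p arm, and usually 1 arm is kept while the other is degraded. The seed, the bases near the 5′ end, pairs with target mRNAs, so miRNAs that share a seed form a family. Many miRNA genes lie in clusters that are transcribed together, among them the imprinted Dlk1-Dio3 region, which is active in brain, and the miR-322/miR-503 cluster of the X chromosome, which is known from cell cycle exit and muscle differentiation.

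The mature sequences that carry the comparison are given from RefSeq (GRCm38.p6), 5′ to 3′, with the seed, bases 2 to 8, in capitals. The 4 differentially expressed miRNAs come first, because no 2 of them share a seed.
miR-412-5p: uGGUCGACcagcuggaaaguaau
miR-322-3p: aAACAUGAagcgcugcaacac
miR-542-3p: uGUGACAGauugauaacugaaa
miR-3064-3p: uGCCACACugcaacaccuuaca

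The opposite arms of the hairpins of miR-412 and miR-542 are shown because miR-412-3p did not share the change of its partner and miR-542-5p was the lowest name of its cluster.
miR-412-3p: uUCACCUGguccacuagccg
miR-542-5p: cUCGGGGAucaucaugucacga

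miR-322-5p, the opposite arm of miR-322-3p, has the seed of the miR-16 family, and 2 abundant members of that family are set beside it.
miR-322-5p: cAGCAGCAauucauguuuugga
miR-16-5p: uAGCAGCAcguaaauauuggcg
miR-15a-5p: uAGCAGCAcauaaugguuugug

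Members of the miR-181 and miR-29 families are shown because the former differed in sign among themselves and the latter did not. miR-181b-5p belongs to the former as well.
miR-181a-5p: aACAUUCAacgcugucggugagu
miR-181c-5p: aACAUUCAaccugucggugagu
miR-181d-5p: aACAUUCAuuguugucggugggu
miR-29a-3p: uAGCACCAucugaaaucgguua
miR-29b-3p: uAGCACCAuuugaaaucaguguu
miR-29c-3p: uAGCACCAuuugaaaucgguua

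The remaining sequences belong to miRNAs whose libraries did not overlap between ages without passing the test, and to miR-296-5p. The change of miR-296-5p with age differed between tissues in the reported fit but was not called with the mouse number as a block.
miR-3084-3p: uUCUGCCAgucuccuucagac
miR-8114: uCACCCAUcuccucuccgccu
miR-5100: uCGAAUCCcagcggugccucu
miR-409-3p: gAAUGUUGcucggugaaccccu
miR-409-5p: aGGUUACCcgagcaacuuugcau
miR-296-5p: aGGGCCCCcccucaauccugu

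Most hypothalamic miRNAs had similar levels at both ages, and 4 of 715 tested names were differentially expressed, which is 0.559% (fold change over 1.5 and adjusted p under 0.05 by the quasi-likelihood test of edgeR, Benjamini-Hochberg adjusted over all tested names). miR-412-5p, miR-322-3p and miR-542-3p were downregulated in aged mice (0.42% of tested names), and miR-3064-3p was upregulated (0.14%). The counts per library summed to 13791383, 10788177 and 13803885 in young mice and 13222530, 14180420 and 11048329 in aged mice. Levels are given in CPM, the counts relative to library size scaled with edgeR's TMM factors, as mean ± SD (n = 3 mice). All 4 differentially expressed miRNAs were of low abundance, with mean levels from 0.59 to 21 CPM over the 6 libraries.

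Among all tested names, 66 had an unadjusted p under 0.05, 29 higher and 37 lower in aged mice. The median log2 fold change was 0.01 and the median absolute log2 fold change 0.23. With scaling by total reads the median of all tested names was -0.06 and by limma on log2(RPM + 1) it was -0.07, a shift that values of gene lists under these settings include. A change over 1.5-fold was measured for 99 names, 49 higher and 50 lower in aged mice, while 86.2% stayed under it. Changes of that size were mostly measured at low levels: of the 209 names with a mean level of at least 100 CPM, 3 passed 1.5-fold, and the highest fold was 1.69. The CPM of the 3 aged mice lay wholly above or wholly below those of the 3 young mice for 144 names (20.1%), above for 66 (9.23%) and below for 78 (10.9%).

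**Figure D1:**
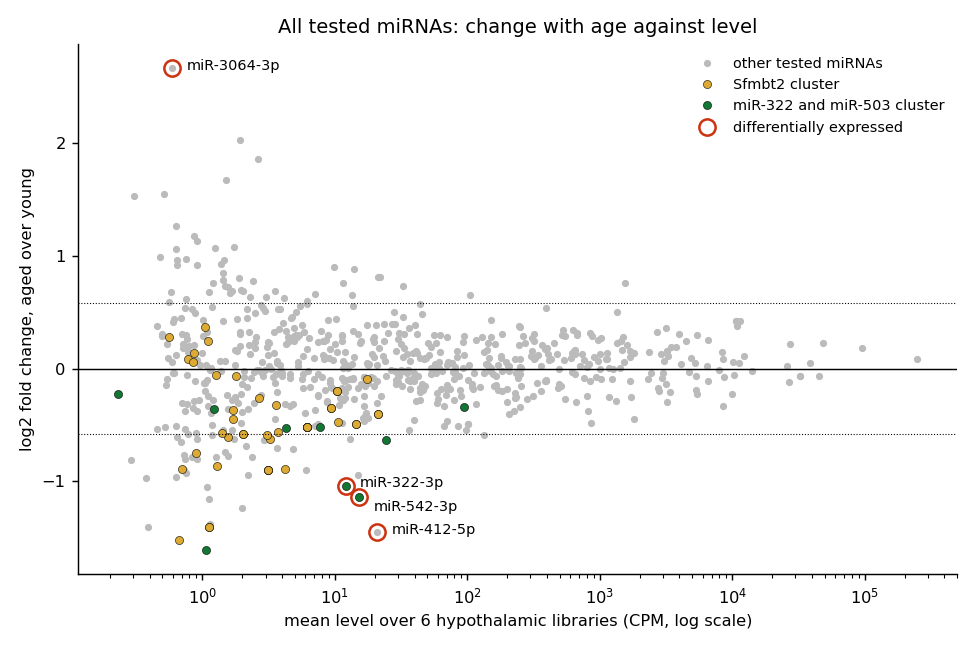
The log2 fold change of each of the 715 tested miRNAs (aged over young) is plotted against its mean level over the 6 hypothalamic libraries (CPM, log scale), with dotted lines at 1.5-fold. Circled points are the 4 differentially expressed miRNAs, which lie between 0.59 and 21 CPM, and filled colors mark members of the Sfmbt2 and miR-322/miR-503 clusters, most of which lie below 0.

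None of the most abundant miRNAs of the hypothalamus was differentially expressed. miR-127-3p, from the Dlk1-Dio3 region, had between 21.7% and 30.1% of all counts in a library, and the 10 highest names together had between 61.1% and 64.3%. The level of miR-127-3p was 233008, 266048 and 229335 CPM in young mice and 240845, 217288 and 315713 CPM in aged mice. The groups overlapped, and aged mouse 6 had the highest level (log2 fold change 0.09, edgeR adjusted p = 0.917). Next in abundance were miR-181a-5p (log2 fold change 0.18), miR-30a-5p (0.22), miR-143-3p (-0.07) and miR-191-5p (0.05). miR-26a-5p, known as a brake on cell proliferation, had 25519, 24767 and 26163 CPM in young and 30299, 31967 and 26388 CPM in aged mice. Its groups did not overlap, by a narrow margin between young mouse 3 and aged mouse 6, and it did not pass the test (log2 fold change 0.21, edgeR adjusted p = 0.633).

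miR-412-5p, the 5p product of a hairpin near the end of the Dlk1-Dio3 region, had the lowest adjusted p. Its counts were 459, 332 and 426 in young mice and 137, 173 and 116 in aged mice, or 32.7, 30.3 and 29.2 CPM against 10.5, 12.2 and 11.0 CPM. Every aged mouse had a level far below every young mouse, and the mice of each age were close together. The mean fell from 30.7 ± 1.79 to 11.2 ± 0.885 CPM, a 2.73-fold decrease (log2 fold change -1.45, SE 0.17, edgeR adjusted p = 0.000298). The decrease passed the test in every alternative fit and with any 1 hypothalamic library left out.

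The other arm of the same hairpin, miR-412-3p, did not have this change. Its counts were 71, 74 and 69 in young mice and 72, 85 and 66 in aged mice, and the groups overlapped throughout (log2 fold change 0.11, SE 0.24, edgeR adjusted p = 0.917). The 5p arm therefore made up 86.6%, 81.8% and 86.1% of the reads of both arms in young mice and 65.6%, 67.1% and 63.7% in aged mice. The shares of the ages lay well apart, and the 5p arm stayed the larger in each mouse. The mean share went from 84.8 ± 2.65% to 65.4 ± 1.66%, and the ratio of 5p to 3p fell 2.97-fold (log2 change -1.57, SE 0.23). It was the 1 of 269 hairpins whose arm ratio passed the test (0.372%, limma, adjusted p = 0.0078). That call was lost without young mouse 1 (limma adjusted p = 0.0596), young mouse 3 (0.0639), aged mouse 4 (0.0519) or aged mouse 6 (0.0565).

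The mir-412 hairpin lies on chromosome 12 at 109743289 to 109743368 on the plus strand (GRCm38.p6), in an intron of the long non-coding RNA Mirg. Just before it, at 109743158 to 109743236, lies mir-409, also within Mirg. miR-409-3p had 939, 931 and 1123 CPM in young mice and 681, 756 and 698 CPM in aged mice. Each aged mouse was below each young mouse, but the difference did not pass the test (998 ± 109 to 712 ± 39.2 CPM, log2 fold change -0.49, SE 0.13, edgeR adjusted p = 0.184). Its other arm, miR-409-5p, had 23.1, 18.1 and 17.9 CPM in young and 8.87, 15.9 and 5.79 CPM in aged mice. Those groups were also apart, with a wider spread among aged mice (log2 fold change -0.94, edgeR adjusted p = 0.368). Both arms of mir-409 were thus on the same side of 0.

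**Figure D2:**
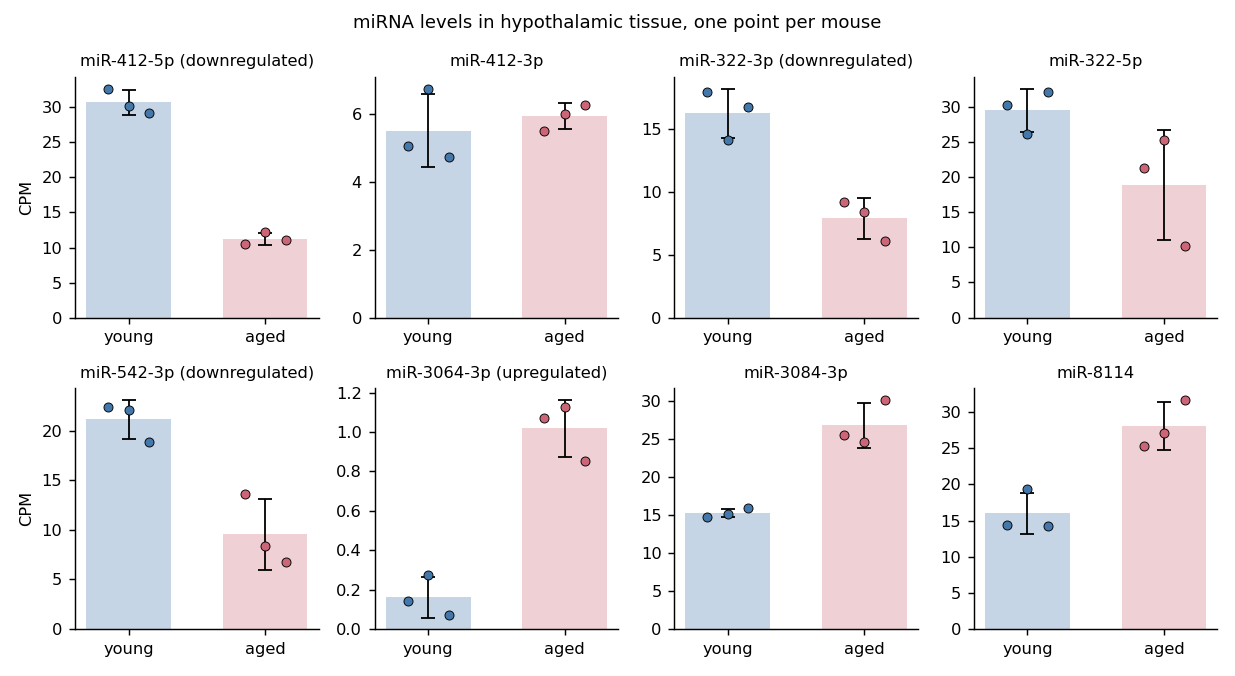
Levels in CPM of 8 miRNAs are shown in young and aged hypothalamic tissue, with 1 point per mouse, bars at the group mean and error bars of 1 SD (n = 3 mice). miR-412-5p was apart between ages (30.7 against 11.2 CPM), while the points of miR-412-3p from the same hairpin are mixed.

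The miR-322/miR-503 cluster held the other 2 downregulated miRNAs. miR-322-3p, cut from the mouse counterpart of the human mir-424 hairpin, had counts of 252, 155 and 244 in young mice and 120, 119 and 64 in aged mice, or 17.9, 14.1 and 16.7 CPM against 9.18, 8.40 and 6.08 CPM. The groups did not overlap, and aged mouse 6 was the lowest. The mean fell from 16.3 ± 1.95 to 7.88 ± 1.61 CPM, a 2.06-fold decrease (log2 fold change -1.04, SE 0.21, edgeR adjusted p = 0.0406). It was no longer called when the hypothalamic libraries were fitted alone (edgeR adjusted p = 0.117), nor with any 1 of the 6 libraries left out (0.0588 to 0.219).

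miR-542-3p had counts of 315, 243 and 276 in young mice and 178, 118 and 71 in aged mice, or 22.4, 22.1 and 18.9 CPM against 13.6, 8.33 and 6.74 CPM. Every aged mouse was below every young mouse, and the aged mice differed more among themselves than the young mice. The mean fell from 21.2 ± 1.96 to 9.56 ± 3.60 CPM, a 2.20-fold decrease (log2 fold change -1.14, SE 0.24, edgeR adjusted p = 0.0471). Without aged mouse 4, the highest of its group, the edgeR adjusted p was 0.00574, and without any other 1 library the call was lost, with values up to 0.219. It was also lost with hypothalamic libraries alone (0.14), with a minimum of 10 counts per library (0.0503), and with counts summed over precursors (0.0565).

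The other arms of these hairpins were lower in aged mice as well but did not pass the test. miR-322-5p, the arm with the seed of the miR-16 family, had 30.3, 26.2 and 32.1 CPM in young mice and 21.3, 25.3 and 10.2 CPM in aged mice. The groups were apart by less than 1 CPM, with aged mouse 5 next to young mouse 2 (log2 fold change -0.64, SE 0.27, edgeR adjusted p = 0.429), and without aged mouse 6 the value was -0.35. miR-542-5p was counted 15, 20 and 29 times in young mice and 10, 7 and 3 times in aged mice. At these counts its groups were apart (log2 fold change -1.61, edgeR adjusted p = 0.301).

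Of 12 listed names of the miR-322/miR-503 cluster and its neighbor mir-351, 9 were tested and all 9 had a negative log2 fold change in aged mice under each scaling of the libraries. The median was -0.53, against 0.01 for all tested names, 2 of the 9 were downregulated (against 0.42% of all tested names) and 4 were below in each aged mouse (against 10.9%). Those 4 were both arms of mir-322 and of mir-542. The list was written with earlier results of these data known, so these shares are no independent support for a change of the cluster. The lowest of the 9 was miR-542-5p. Besides it, the downregulated names and miR-322-5p, the members lay between -0.53 for miR-450b-5p (-0.28 without aged mouse 6) and -0.23 for miR-503-5p, whose counts were between 2 and 5 per library. Without young mouse 3 or without aged mouse 5, the value of miR-503-5p was above 0 and 8 of the 9 were negative. The members' summed levels were 184, 174 and 215 CPM in young mice and 151, 164 and 81.2 CPM in aged mice. Aged mouse 6 was the lowest, and without it the median was -0.35. miR-351-5p, the most abundant member, had 95.3, 91.9 and 132 CPM in young and 91.1, 110 and 50.1 CPM in aged mice, and its groups overlapped.

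In position, mir-322 lies on the X chromosome at 53054255 to 53054349 on the minus strand (GRCm38.p6), in an exon of at least 1 annotated transcript of the long non-coding RNA C430049B03Rik. mir-542 lies at 53049403 to 53049487 on the same strand, between that gene and Hprt. They belong to a run of 6 hairpins from 53047997 to 53054349, with mir-450b, mir-450a-1, mir-450a-2 and mir-503. The levels of its names summed to 88.7, 82.4 and 83.0 CPM in young mice and 59.6, 53.6 and 30.9 CPM in aged mice, or 84.7 ± 3.49 against 48.0 ± 15.2 CPM. The sums were apart between ages, and the lowest aged value was again that of mouse 6. As a cluster, the run had the lowest p of all clusters tested and did not pass after adjustment (log2 fold change -0.87, SE 0.21, edgeR adjusted p = 0.137, with libraries scaled by the counts assigned to clusters).

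miR-3064-3p was the upregulated name, at very few reads. It was counted 2, 3 and 1 times in young mice and 14, 16 and 9 times in aged mice. Each aged mouse had more reads than all young mice combined. Summed over mice, 39 counts stood against 6, and after scaling by library size the ratio was 6.82, with a 95% interval of 2.87 to 19.7 that covers counting error only. The edgeR log2 fold change was 2.67 (SE 0.51, adjusted p = 0.0406), from 0.161 ± 0.104 to 1.02 ± 0.145 CPM. The call was lost with hypothalamic libraries alone (edgeR adjusted p = 0.117), by limma on log2(RPM + 1) (adjusted p = 0.0935), and with any 1 of the 6 hypothalamic libraries left out (0.0588 to 0.31).

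The other arm of this hairpin, miR-3064-5p, was counted 13, 5 and 5 times in young mice and 6, 8 and 15 times in aged mice. Its groups overlapped (log2 fold change 0.44, edgeR adjusted p = 0.847), and the value was -0.17 without aged mouse 6. The hairpin lies on chromosome 11 at 106782693 to 106782759 on the minus strand, in an exon of at least 1 annotated transcript of Ddx5, which encodes an RNA helicase that acts in miRNA processing. The mRNA of Ddx5, measured in the same RNA samples in units of expected counts, was 17644, 17785 and 18337 in young and 18816, 18618 and 18907 in aged mice. With library size taken into account, the log2 fold change of Ddx5 was 0.05 (edgeR adjusted p = 0.63).

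Several names were apart between ages without passing the test. miR-3084-3p had counts of 208, 166 and 232 in young mice and 335, 350 and 318 in aged mice, or 14.8, 15.1 and 15.9 CPM against 25.6, 24.7 and 30.2 CPM. The young mice were close together and each aged mouse was above them (15.3 ± 0.557 to 26.8 ± 2.94 CPM, log2 fold change 0.81, SE 0.20, edgeR adjusted p = 0.163). miR-8114 had 14.4, 19.3 and 14.3 CPM in young and 25.3, 27.2 and 31.7 CPM in aged mice. It was likewise higher in each aged mouse (16.0 ± 2.87 to 28.1 ± 3.29 CPM, log2 fold change 0.81, edgeR adjusted p = 0.184). Both passed by DESeq2's Wald test (adjusted p = 0.0138 for miR-3084-3p and 0.0354 for miR-8114).

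Of these, the mir-8114 hairpin lies on chromosome 1 at 153899926 to 153900036, in an exon of at least 1 annotated transcript of Glul, the gene of glutamine synthetase, an enzyme of astrocytes. The mRNA of Glul had a log2 fold change of 0.23 (edgeR adjusted p = 0.068). miR-3084-3p has 2 hairpins on chromosome 19, one at 24942235 to 24942303 in an intron of Cbwd1 and one at 60774329 to 60774397 in an intron of Eif3a, over the small nucleolar RNA gene Snora19. Their host mRNAs had log2 fold changes of -0.14 for Cbwd1 and 0.15 for Eif3a, and neither passed the test.

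miR-5100 was counted 11, 12 and 6 times in young mice and 41, 23 and 48 times in aged mice. All aged mice were above all young mice (log2 fold change 2.03, SE 0.58, edgeR adjusted p = 0.184). It passed when every name with a read was kept in the fit (edgeR adjusted p = 0.00316). miR-8103 had 7.26, 9.93 and 12.3 CPM in young and 16.9, 14.1 and 23.6 CPM in aged ones (log2 fold change 0.89), and miR-3083-5p was counted 11, 4 and 14 times against 22, 51 and 17 times (1.68). Both were higher in each aged mouse (edgeR adjusted p = 0.184 for each), and both passed by DESeq2's Wald test, miR-3083-5p also with every name kept. In the other direction, miR-7688-5p was counted 44, 22 and 48 times in young and 13, 18 and 14 times in aged mice (log2 fold change -1.24, edgeR adjusted p = 0.184).

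The imprinted Dlk1-Dio3 region of chromosome 12, whose miRNAs are transcribed from the maternal copy, was measured with 94 of 102 listed names tested. One of the 94, miR-412-5p, was downregulated, 10 had an unadjusted p under 0.05 (against 66 of all 715 names), and the median log2 fold change was -0.12. The median was -0.20 with scaling by total reads and -0.19 by limma. Of the 94, 62 were negative, 21 were below in each aged mouse and 0 above, against 10.9% below and 9.23% above of all tested names. Of the 94, 88 lie in 3 runs of hairpins on the plus strand, with neighbors less than 10 kb apart, and 6 lie in none of them, 3 of these negative. Differences between the runs were not tested.

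The run from mir-379 to mir-3072, at 109709060 to 109747960, has 34 hairpins and 61 tested names. Of these, 49 were negative (80.3%, against 48.8% of all tested names), and the median was -0.16. Of the 61, 16 were below in each aged mouse and 0 above, against 10.9% below and 9.23% above of all tested names. The number of negative names was 54 with scaling by total reads, where 57.8% of all tested names were negative, and between 42 and 49 with 1 hypothalamic library left out, the lowest without aged mouse 4. Its most abundant member, miR-410-3p, which had 35.5% of the run's counts, was not among them (log2 fold change 0.11). The summed levels of the run were 34332, 35031 and 36045 CPM in young and 31948, 30708 and 40341 CPM in aged mice. Aged mouse 6 had the highest sum and the other aged mice the lowest, so the ages overlapped (in the test of clusters, log2 fold change -0.08, SE 0.14, edgeR adjusted p = 0.91).

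Within this run, miR-323-3p had 158, 167 and 153 CPM in young mice and 94.1, 103 and 121 CPM in aged mice. Each aged mouse was below each young mouse (159 ± 7.02 to 106 ± 13.7 CPM, log2 fold change -0.59, edgeR adjusted p = 0.184). miR-380-5p had 46.9, 43.5 and 39.9 CPM against 33.0, 29.6 and 26.4 CPM (log2 fold change -0.55, edgeR adjusted p = 0.368). miR-544-3p, which belongs to the region by the list and was not placed in any of the runs, was counted 35, 34 and 45 times in young and 17, 21 and 18 times in aged mice (log2 fold change -0.95, edgeR adjusted p = 0.368). These were also apart between ages, and none passed the test.

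The run from mir-770 to mir-136, at 109563692 to 109595388, has 13 hairpins and 22 tested names, of which miR-3070-2-3p was not on the list. Of these, 8 were negative and the median was 0.06. Its direction was not stable when a library was left out: the median was -0.02 without young mouse 1 (14 of 22 negative) and -0.13 without aged mouse 6 (17 of 22). The median was -0.02 with scaling by total reads and -0.03 by limma, and in both settings it stayed above the median of all tested names. Without aged mouse 6 the run from mir-379 to mir-3072 had 49 of 61 negative and a median of -0.15, close to that of this run. miR-127-3p made up 93.2% of its counts, and in the test of clusters its log2 fold change was 0.04 (edgeR adjusted p = 0.951).

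The smallest run lies between these, from mir-341 to mir-370 at 109611500 to 109618336, and has 3 hairpins and 6 tested names, 2 of them negative. None of the 6 was apart between ages or had an unadjusted p under 0.05. The median was 0.21, but -0.01 without aged mouse 6 (3 of 6 negative), 0.10 without young mouse 1, 0.34 without aged mouse 5, 0.13 with scaling by total reads or for the 5 names with at least 10 counts per library, and 0.09 by limma. miR-341-3p, with 94.9% of its counts, had 1953, 2501 and 2208 CPM in young and 2151, 1436 and 3775 CPM in aged ones. Aged mouse 5 was the lowest and aged mouse 6 the highest, so the ages overlapped (log2 fold change 0.14, edgeR adjusted p = 0.917).

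**Figure D3:**
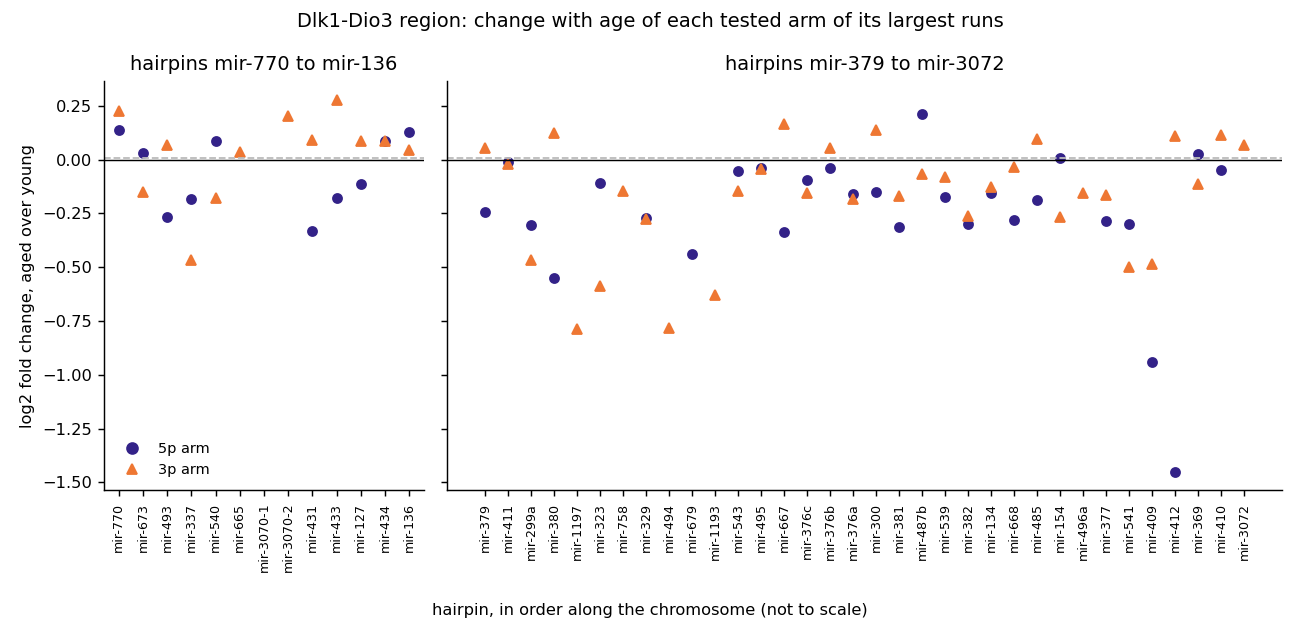
The log2 fold change of each tested arm (circles for 5p, triangles for 3p) is plotted by hairpin, in order along chromosome 12 and not to distance, for the 2 largest runs of the Dlk1-Dio3 region; the dashed line is the median of all tested names (0.01). In the run from mir-379 to mir-3072, 49 of 61 names lie below 0 and miR-412-5p is the lowest at -1.45. In the other run 8 of 22 lie below 0, a direction that turned without young mouse 1 and without aged mouse 6, and in sign with scaling by total reads and by limma.

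The Sfmbt2 cluster is a large set of closely similar hairpins in an intron of Sfmbt2, an imprinted gene of the polycomb group. Its members were listed by miRNA name and not by position, and most of their hairpins could not be positioned here. Of the 78 listed names 44 were tested. None was differentially expressed, 11 had an unadjusted p under 0.05 (against 66 of all 715 names), and DESeq2's Wald test called 0 as well. The median log2 fold change was -0.50 and 38 of the 44 were negative, 38 with DESeq2's size factors and 39 with total reads. In 21 names each aged mouse was below each young mouse, and in 0 above, against 10.9% and 9.23% of all tested names. The 44 names held 33 distinct sets of counts, because copies share reads, so they are not independent measurements. Leaving out 1 hypothalamic library gave between 35 and 41 negative names.

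With identical copies counted once, the summed level of the Sfmbt2 cluster was 153, 178 and 174 CPM in young mice and 115, 119.6 and 145 CPM in aged mice. The sums were apart between ages, and the aged mean was 0.75 of the young mean. The most abundant member, miR-467a-5p, had 26.4, 23.4 and 23.0 CPM in young and 17.0, 16.7 and 21.5 CPM in aged mice (24.3 ± 1.88 to 18.4 ± 2.66 CPM, log2 fold change -0.40, edgeR adjusted p = 0.479). The lowest, miR-466e-5p, was counted 16, 10 and 14 times in young and 5, 5 and 3 times in aged mice (log2 fold change -1.53, edgeR adjusted p = 0.429). miR-466b-5p, whose counts were identical to those of miR-466o-5p, was counted 28, 16 and 21 times against 9, 7 and 7 times (log2 fold change -1.40, edgeR adjusted p = 0.301). The highest, miR-466f-3p, had overlapping groups (0.37). The mRNA of Sfmbt2 had a log2 fold change of 0.08 (edgeR adjusted p = 0.801), with overlapping groups, and -0.057 without aged mouse 6.

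The other listed clusters had no called member. In the Htr2c cluster of the X chromosome, which lies within the gene of a serotonin receptor, 7 of 9 tested names were negative with a median of -0.12. The median was -0.07 without young mouse 3 (5 of 9 negative) or without aged mouse 6, -0.19 with total reads and -0.18 by limma. The most abundant, miR-1298-5p, had 1229, 408 and 1110 CPM in young and 621, 1123 and 366 CPM in aged mice. Young mouse 2 and aged mouse 6 were the lowest, and the ages overlapped fully. The Clcn5 cluster of the X chromosome had 7 of 9 tested names positive (median 0.12), and 5 with scaling by total reads (median 0.05) and 6 by limma (0.04), both of which include the shift of all names.

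The miR-17 to miR-92a cluster with its paralogs had 8 of 19 positive and no stable direction. Its median was -0.11, but 0.03 for the 11 names with at least 10 counts per library and 0.0043 without young mouse 3. It was -0.18 with total reads or by limma, -0.22 without young mouse 2, -0.25 without aged mouse 5 and -0.06 without aged mouse 6. The cluster of miR-183, miR-96 and miR-182, known from sensory cells, had 3 of 3 positive (median 0.31), without any of them apart between ages. This direction rested on aged mouse 4, without which 1 of 3 was positive and the median was -0.18. The median was 0.05 by limma (2 of 3 positive), 0.69 without young mouse 1, 0.13 without young mouse 2, 0.16 without young mouse 3 and 0.72 without aged mouse 6. Across 285 genomic clusters, 0 passed edgeR's test on summed counts (0%), while 29 had an unadjusted p under 0.05. The same count of 0 was found with hairpins joined up to 50 kb and with scaling by total reads. Most hairpins of the Sfmbt2 cluster could not be positioned, so that cluster as a whole was not among the 285.

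By seed, 582 families were tested on summed counts and 3 passed (0.515%). These were the families of miR-412-5p, miR-322-3p and miR-3064-3p, each with that single member. The call of the family of miR-412-5p was kept in every alternative. That of miR-322-3p was lost with hypothalamic libraries alone (edgeR adjusted p = 0.132) and with any 1 of the 6 libraries left out (0.0619 to 0.197). That of miR-3064-3p was lost with hypothalamic libraries alone (0.0738) and without any 1 library other than young mouse 2 (0.0838 to 0.197). The family of miR-542-3p, also a single name, did not pass (log2 fold change -1.11, edgeR adjusted p = 0.0617), but it passed with scaling by total reads (0.034) and without aged mouse 4 (0.00631). Of the 77 families with at least 2 tested members, 0 passed edgeR's test, and 6 had an unadjusted p under 0.05 (against 56 of all 582 families). The lowest adjusted p among them was 0.248, for miR-467d-5p with miR-467c-5p of the Sfmbt2 cluster (log2 fold change -0.75).

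The miR-29 family, known for repressing collagens and rising with maturation of the brain, had all 3 members on the positive side. miR-29a-3p had 2865, 2833 and 2544 CPM in young mice and 3428, 3798 and 3363 CPM in aged mice. The groups of miR-29a-3p did not overlap (log2 fold change 0.36, SE 0.15, edgeR adjusted p = 0.426). miR-29c-3p was also apart between ages (log2 fold change 0.34, edgeR adjusted p = 0.429), and miR-29b-3p overlapped, at 606, 589 and 596 CPM against 776, 852 and 603 CPM (0.32). The levels of the 3 members had a sum of 3813 ± 214 CPM at the young age and of 4866 ± 358 CPM at the old age, and the ratio of these means was 1.28. In the test of seed families, whose libraries were scaled over families, the sum did not pass (log2 fold change 0.38, SE 0.15, edgeR adjusted p = 0.38).

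The members of the miR-181 family, which share their seed, were split in sign. miR-181d-5p had 2194, 2095 and 2036 CPM in young mice and 1602, 1558 and 1462 CPM in aged mice. It was lower in each aged mouse (log2 fold change -0.45, SE 0.13, edgeR adjusted p = 0.184). miR-181c-5p was also lower in each aged mouse, at 9843, 9703 and 8849 CPM against 7968, 6608 and 7992 CPM (log2 fold change -0.33, edgeR adjusted p = 0.429). miR-181b-5p was higher in each aged mouse, at 5763, 6190 and 5933 CPM against 6754, 6804 and 7698 CPM (0.25). miR-181a-5p, which held 85.1% of the family's counts, had a log2 fold change of 0.18 with overlapping groups, and the family sum was at 0.17 (edgeR adjusted p = 0.717). No member passed the test, and differences between members were not tested.

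The seed of the miR-16 family is carried by miR-322-5p and by miRNAs of much higher abundance. miR-16-5p held 87.0% of that family's counts and had 3181, 2821 and 3053 CPM in young and 3219, 4174 and 2704 CPM in aged mice. The groups overlapped (log2 fold change 0.16, edgeR adjusted p = 0.82). miR-15a-5p was higher in each aged mouse, at 135, 144 and 132 CPM against 160, 153 and 186 CPM (log2 fold change 0.28, edgeR adjusted p = 0.587). Of the 6 tested members 3 were positive, and the summed seed had a log2 fold change of 0.16 (SE 0.16, edgeR adjusted p = 0.795). With a mean of 24.2 CPM, against 3192 CPM for miR-16-5p, miR-322-5p could hardly move this sum in either direction.

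Other families had no called member. Names of let-7, which marks differentiated cells, and of miR-98 were listed with 5p and 3p arms. Of 23 tested, 10 were positive, and the median was -0.03. It ran from -0.10 with total reads or by limma (4 of 23 positive) to 0.04 without aged mouse 6 (14 of 23). It was 0.0071 without aged mouse 4 and -0.06 without aged mouse 5 (6 of 23). The 3p arms are outside the seed family led by let-7f-5p, which had 11 members. The sum of that family was at 0.03 (edgeR adjusted p = 0.975). The miR-30 family had 5 of 6 positive (median 0.15, but 0.08 with total reads or without aged mouse 5, 0.07 by limma and 0.25 without aged mouse 6). Both tested names of the activity-regulated pair miR-132-3p and miR-212-3p were negative (median -0.27), and miR-132-3p had 1742, 1954 and 1952 CPM in young and 1480, 1632 and 1625 CPM in aged mice, which were apart. Both names of the miR-7 family, which is enriched in hypothalamic neuroendocrine cells, were negative (median -0.34) with overlapping groups. Their median was -0.17 without aged mouse 6 and -0.59 without aged mouse 5.

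Among the 269 hairpins with enough reads to compare arms, the 5p arm was higher in all 6 libraries for 139 and the 3p arm for 119. In the remaining 11, the higher arm differed between libraries. The smaller arm made up a median of 9.24% of arm reads, and under 1% in 68 hairpins. Of the 269 ratios, 11 had an unadjusted p under 0.05 and 23 moved over 1.5-fold. These hairpins are not fully independent, since 35 share all reads of both arms with a copy.

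Apart from mir-412, the lowest p-values belonged to mir-544, mir-674 and mir-380. The 5p share of mir-674 was 46.6%, 49.4% and 52.0% in young mice and 58.2%, 56.2% and 62.6% in aged mice. The ages were apart, and the mean passed from just under to above 50% (log2 ratio change 0.56, limma adjusted p = 0.511). The 5p share of mir-544 was 83.9%, 79.3% and 77.4% in young and 91.3%, 86.3% and 88.6% in aged mice (log2 ratio change 0.95, limma adjusted p = 0.511). That of mir-380 was 12.7%, 11.5% and 10.8% against 8.49%, 8.74% and 6.08% (log2 ratio change -0.67, limma adjusted p = 0.635), and mir-708 went from a mean of 24.2% to 19.8% (limma adjusted p = 0.932). For the hairpins of the other downregulated names, the ages overlapped in mir-322 and in mir-542 (limma adjusted p = 0.932 for each). Both arms of each had negative log2 fold changes, while those of mir-412 differed in sign.

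**Figure D4:**
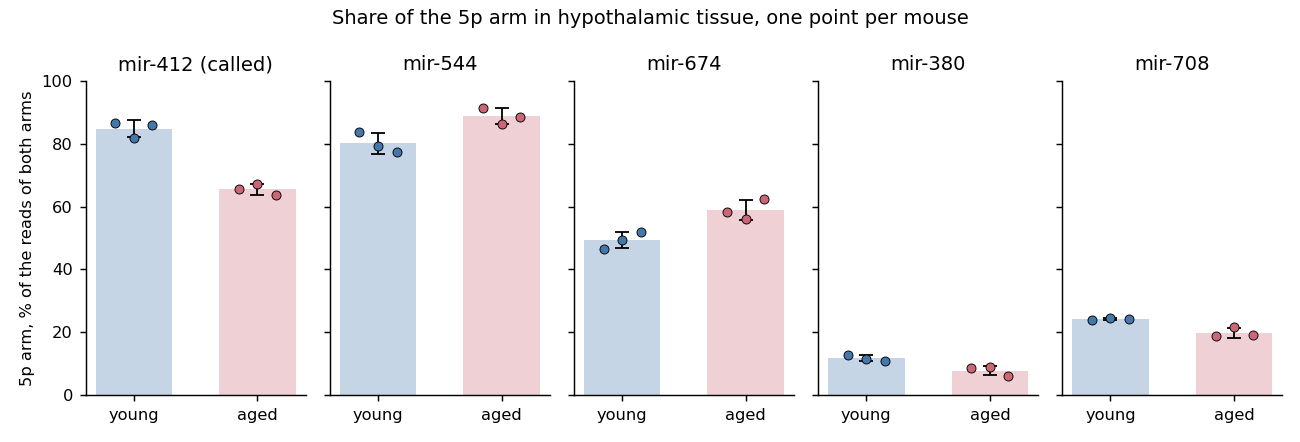
The 5p share of the reads of both arms (percent) is shown for 5 hairpins in young and aged hypothalamic tissue, with 1 point per mouse, bars at the mean and error bars of 1 SD (n = 3 mice). mir-412 went from 84.8% to 65.4% and was the only one of them that passed the test; the other 4 were apart between ages by smaller amounts.

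The tissue label was checked in the mRNA of the same RNA samples. The hypothalamic neuropeptides were present in each library, with expected counts of 1449, 2311 and 1738 for Avp in young and 1166, 1599 and 2226 in aged mice, and of 1272, 1457 and 1133 against 1161, 1337 and 1413 for Hcrt. Their groups overlapped (log2 fold change -0.15 for Avp and 0.00 for Hcrt), as did those of Oxt (-0.10), Pmch (-0.13) and Trh (0.09). Of the arcuate nucleus markers, Pomc, the precursor of melanocortins that lower food intake, was upregulated: 161, 167 and 177 expected counts in young and 280, 307 and 252 in aged mice (log2 fold change 0.71, edgeR adjusted p = 0.0242). The call of Pomc was lost without young mouse 1 (edgeR adjusted p = 0.111), young mouse 2 (0.134), aged mouse 4 (0.0612) or aged mouse 6 (0.057).

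Agrp, the melanocortin antagonist of neurons that drive feeding, was downregulated, at 35, 44 and 36 expected counts against 20, 16 and 17 (log2 fold change -1.13, edgeR adjusted p = 0.0492). It was called without young mouse 3 (0.0388) and lost without any other 1 library. Against these 2 markers, 108 of 14955 genes were called in all (0.722%). For each cell type marker, fewer cells and less RNA per cell cannot be told apart in bulk tissue. The part of marker differences in the miRNA results was not tested.

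Host genes of miRNAs, and Gpc3 as a neighbor, were read from the same mRNA libraries. Of these 18 listed genes 15 were tested, and 0 were called at a fold over 1.5 by edgeR or by DESeq2. Meg3, Rian and Mirg were absent from the mRNA counts and were not tested. The host of mir-412 and mir-409, Mirg, is thus not covered. At an unadjusted p under 0.05 by edgeR were 4, of which Arpp21 and Evl were lower and Mest and Dnm3 higher in aged mice. The edgeR adjusted p was 0.214 for Evl and 0.207 for Mest. The share of all tested genes at that unadjusted threshold is not given here, so the count is not read as a trait of host genes. The log2 fold changes of the 15 ran from -0.33 for Arpp21, host of mir-128-2 (edgeR adjusted p = 0.0485, below 1.5-fold), to 0.26 for Dnm3 (0.082). In Dnm3, mir-199a-2 and mir-214 lie on the opposite strand.

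Markers of neighboring and admixed cell types varied between single mice. The choroid plexus marker Ttr had 14955, 598 and 12182 expected counts in young and 6820, 20841 and 467 in aged mice. Young mouse 2 and aged mouse 6 had the fewest, and the ages overlapped (log2 fold change 0.00). Folr1 and Kl, also genes of choroid plexus, had the same low libraries. Among miRNAs listed for choroid plexus and ciliated cells, 3 of 8 tested names were positive, but 5 without young mouse 1, aged mouse 4 or aged mouse 6 and 1 without aged mouse 5. miR-204-5p was the most abundant, and the sums were 13929, 9664 and 11227 CPM in young and 11707, 12861 and 8950 CPM in aged mice. Here too the lowest were young mouse 2 and aged mouse 6, which for miR-1298-5p was also the case. Pituitary genes had few counts: Gh had 0, 1 and 1 expected counts in young and 1, 11 and 2 in aged mice. Tshb had 6, 6 and 3 in young and 3, 7 and 2 in aged mice. Prl had at most 2 and Pou1f1 at most 1 in any library.

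Blood markers had negative log2 fold changes in aged mice without a call. Hbb-bs had 4728, 6341 and 2817 expected counts against 2780, 2728 and 1477 (log2 fold change -1.01, edgeR adjusted p = 0.087). Hba-a1 had 2584, 4423 and 2206 against 2522, 2240 and 1781, with overlapping groups (-0.51, edgeR adjusted p = 0.209). All 7 erythroid miRNA names, which held 5 distinct sets of counts, were negative, with a median of -0.22. They had 0 calls by edgeR or DESeq2 and 0 at an unadjusted p under 0.05. Without aged mouse 6, 5 of the 7 were negative, and without aged mouse 5 the median was -0.12. The most abundant, miR-486a-5p, was at -0.07. With identical copies counted once, the sums were 37084, 33178 and 30534 CPM in young and 35709, 33877 and 26375 CPM in aged mice and overlapped.

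Among miRNAs of leukocytes and microglia, 7 of 10 tested names were positive, with a median of 0.21 (0.14 with total reads, 0.11 by limma and 0.32 without young mouse 1). An unadjusted p under 0.05 was found for 3 (against 66 of all 715 names), miR-146a-5p and miR-142a-5p higher and miR-223-3p lower. The sums of the list were 5666, 4907 and 5014 CPM in young and 6200, 6511 and 5610 CPM in aged mice. They overlapped by a small margin at young mouse 1 and aged mouse 6. miR-146a-5p, a feedback inhibitor of inflammatory signaling, had 366, 304 and 299 CPM against 493, 547 and 366 CPM (log2 fold change 0.54, SE 0.20, edgeR adjusted p = 0.371). miR-142a-5p, of blood-borne cells and microglia, was higher in each aged mouse, at 223, 227 and 195 CPM against 287, 250 and 298 CPM (0.37, edgeR adjusted p = 0.432). The most abundant, miR-21a-5p, was at 0.24 and miR-223-3p, of neutrophils, at -0.90. None passed the test.

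Of 16 neuronal miRNA names 11 were negative, with a median of -0.11. The median was -0.18 with total reads, by limma or without aged mouse 5, -0.07 without young mouse 1 and -0.04 without aged mouse 4. miR-124-3p, the most abundant, had 7334, 7397 and 5739 CPM against 6518, 5617 and 6859 CPM with overlapping groups. The lists of oligodendrocytes, vessels and muscle had no stable direction. Of 5 oligodendrocyte names 2 were positive, and with 1 library left out the median ran from -0.11 (without aged mouse 6) to 0.27 (without aged mouse 4). Of 6 vessel names 4 were positive, with a median of 0.04. That median was -0.03 with total reads, -0.08 by limma and -0.01 without aged mouse 4. It was 0.12 without young mouse 1 and 0.16 without aged mouse 6. Of 3 muscle names 2 were positive, and the median ran from -0.08 (without aged mouse 6) to 0.16 (without aged mouse 5).

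The 3 fibroblast names were negative (median -0.49). Without young mouse 1 the median was -0.15 and without aged mouse 6 it was -0.28, with 2 of 3 negative in each case, and it was -0.17 without aged mouse 5 and -0.80 without aged mouse 4. Of 9 names of epithelium and pituitary, led in abundance by miR-182-5p, 8 were positive, with a median of 0.66, but without aged mouse 4, 3 were positive and the median was -0.04. It was 0.36 without young mouse 3 and 0.42 by limma (7 of 9 positive). The negative name of the reported fit, miR-375-3p, was lower in each aged mouse (log2 fold change -0.38, edgeR adjusted p = 0.63). No other name of the 9 was apart between ages. The 2 tested hindbrain names, miR-10b-5p and miR-10a-5p, were positive, with sums of 7917, 3471 and 6527 CPM against 9726, 9206 and 3742 CPM, in which the lowest of each age were young mouse 2 and aged mouse 6. miR-122-5p, of liver, had 1.85, 1.91 and 1.85 CPM in young and 1.07, 1.13 and 1.14 CPM in aged ones (log2 fold change -0.74, edgeR adjusted p = 0.479).

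The change with age was set against that in hippocampus, whose 6 small RNA libraries were in the same fit. The difference between tissues passed the test for 1 of 715 names (0.14%), miR-296-5p, and 22 had an unadjusted p under 0.05. miR-296-5p, from the imprinted Gnas region, had 84.1, 73.1 and 77.1 CPM in young and 54.9, 58.9 and 50.3 CPM in aged hypothalamic tissue. In hippocampal tissue it had 46.4, 47.9 and 55.6 CPM in young and 14.4, 10.2 and 14.5 CPM in aged mice. Aged mice were lower in both tissues, without overlap, and by more in hippocampus. The log2 fold change was -0.51 in hypothalamus (edgeR adjusted p = 0.301) and -1.94 in hippocampus (edgeR adjusted p = 1.35e-05), a difference of 1.43 (edgeR adjusted p = 0.0215). With the mouse number, which the labels repeat in both tissues, as a block, the difference was 1.44 and was not called (edgeR adjusted p = 0.108).

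The difference was not called without young hippocampus 2 (edgeR adjusted p = 0.0676) or 3 (0.0783), young hypothalamus 2 (0.0726) or 3 (0.0682), or aged hypothalamus 5 (0.0752). The other arm, miR-296-3p, had a log2 fold change of 0.11 in hypothalamus. The mir-296 hairpin lies on chromosome 2 at 174267047 to 174267125 on the minus strand, between Gm10714 and Gnasas1. Its neighbor miR-298-5p was at 0.13 in hypothalamus and -0.89 in hippocampus, a difference that did not pass (edgeR adjusted p = 0.896).

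For the 4 differentially expressed names, the change in hippocampus was on the same side. miR-412-5p went from 31.9 ± 3.03 to 12.7 ± 1.14 CPM there (log2 fold change -1.33, edgeR adjusted p = 0.000417), and miR-542-3p had a log2 fold change of -1.06 (edgeR adjusted p = 0.0254). miR-322-3p was at -0.62 (edgeR adjusted p = 0.11) and miR-3064-3p at 0.89 (edgeR adjusted p = 0.208). None of these 4 differed between tissues by the test of the difference; for miR-3064-3p the tissues were 1.78 apart on the log2 scale (edgeR adjusted p = 0.896).

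**Figure D5:**
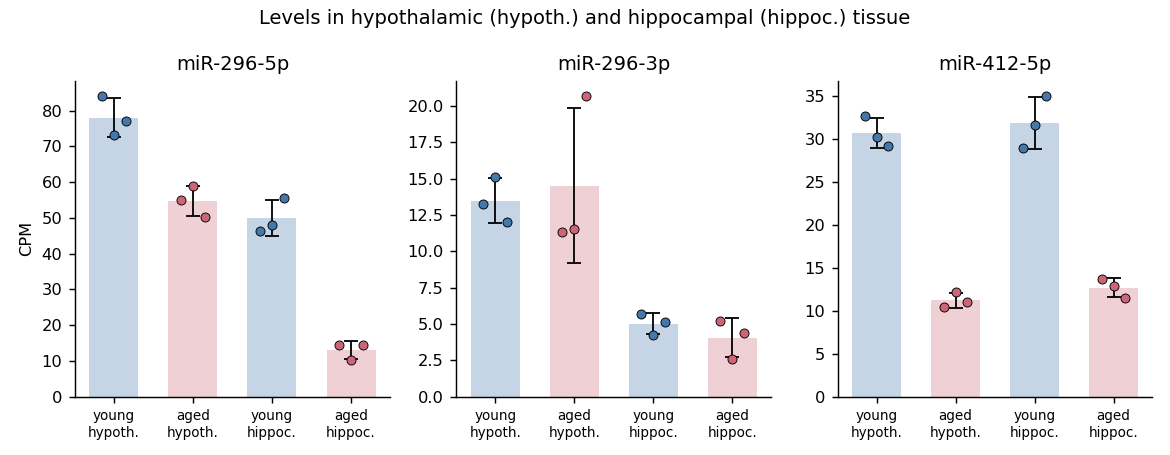
Levels in CPM of miR-296-5p, miR-296-3p and miR-412-5p are shown in young and aged hypothalamic and hippocampal tissue, with 1 point per library, bars at the mean and error bars of 1 SD (n = 3 mice). miR-296-5p was lower in aged mice by more in hippocampus than in hypothalamus (log2 fold change -1.94 against -0.51), while miR-412-5p was lower by similar amounts in both (-1.33 against -1.45).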

How the data were processed

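Total RNA of each tissue sample was used by the authors for both small RNA and mRNA libraries. Small RNA libraries were made with a TruSeq kit and sequenced on a HiSeq instrument, and reads were collapsed and assigned by the authors with miRDeep2 to miRBase release 21 precursors on mm10. The deposited small RNA tables give whole-number counts per precursor for the 5p and 3p arms. The deposited mRNA tables give expected counts per gene from RSEM, which were rounded. A mature name found on several precursors was given its highest count. Remaining reads of a precursor, in neither arm, were 0.0766% to 0.0913% of reads and were left out.

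The 12 small RNA libraries were fitted together in 4 groups of tissue and age with edgeR 4.0.16 (TMM scaling, filterByExpr, quasi-likelihood test) in R 4.3.3. Of 1650 names, 1356 had a read in hypothalamus and 715 were tested. Seed families and clusters (neighboring hairpins within 10 kb on the same strand, 790 of 992 precursors positioned) were tested as sums by edgeR, with libraries scaled over families or clusters, while summed levels are given on the scale of single names. Arm ratios, log2 of 5p over 3p counts with a pseudocount of 0.5 added to each, were tested by limma 3.58.1 for hairpins with a mean of at least 10 arm reads, with the mean log2 reads of the hairpin as the trend. Standard errors of edgeR fold changes are the absolute log2 fold change over the root of F. Single values of 3 against 3 mice were not tested alone, since the smallest p of an exact permutation test is then 0.1. Alternatives included DESeq2 1.42.0, other scalings and filters, and leaving out each library. Intervals were computed on counts summed over the mice of an age, so they cover counting error only and not variation between mice. Reads and not molecules were counted.

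Named miRNAs were the called names with their other arms, cluster neighbors and seed relatives, the 5 lowest p-values per direction among the rest, the 10 most abundant, names in the study's text, list extremes, and hairpins and interactions with the lowest p. Members and lists were chosen with earlier results of these data known. The mice came from more than 1 supplier, and which group came from which was not given in the sources used here.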

Additional observations from a re-analysis of the deposited data

Results flagged for a closer look

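The change of miR-296-5p with age differed between tissues by a test of the difference itself: the log2 fold change in hypothalamus minus that in hippocampus was 1.43 (quasi-likelihood test of edgeR, Benjamini-Hochberg adjusted p = 0.0215). It was not called with the mouse number as a block (1.44, edgeR adjusted p = 0.108). The level was lower in all 3 aged mice in both tissues. The call depended on single libraries, as given with the values. With 1 of the 12 libraries left out, the difference ran from 1.34 to 1.57 and was called in 7 of 12 fits. Its cause was not tested.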

How the results depend on the processing

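The number of differentially expressed names, 4 in the reported fit, was 8 by DESeq2's Wald test (all 4 and miR-3083-5p, miR-3084-3p, miR-8103 and miR-8114), 9 of 1435 with every name with a read kept, 2 of 594 with at least 10 counts in each hypothalamic library and 1 of 678 with hypothalamic libraries alone; the cause was not tested. It was 4 with DESeq2's size factors, with total reads, with identical names merged and without a fold limit, and 3 by limma and with counts summed over precursors. Leaving out 1 hypothalamic library gave 1 to 2, and miR-412-5p was called each time. The arm ratio gave 0 to 1 calls, seed families 1 to 2 and the tissue difference 0 to 1 with 1 library left out.

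With the replicate number, that of the mouse, as a block, the tissue difference gave 0 calls (miR-296-5p 1.44, edgeR adjusted p = 0.108). The numbers were shared between tissues, but pairs did not deviate together: correlations of same-numbered libraries ran from -0.155 to 0.373, and 1 of 6 was best with its own number. The ages share no numbers, so no block was possible within hypothalamus.

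Directions turned in names that were not called. With 1 library left out, miR-3064-5p ran from -0.17 (without aged mouse 6) to 0.98, miR-503-5p from -0.43 to 0.094 (without young mouse 3; 0.019 without aged mouse 5) and Sfmbt2 mRNA from -0.057 (without aged mouse 6) to 0.19. The tissue difference of miR-412-5p was 0.024 with total reads and ran from -0.19 to 0.011 (without aged hippocampus 4). That of miR-542-3p was 0.071 with total reads and ran from -0.38 to 0.14 (without aged hypothalamus 6), with 0.13 without aged hippocampus 5 and 0.011 without aged hypothalamus 5. The cause was not tested. Of the values under the alternatives for single names, tissue differences, arm ratios, family and cluster sums and mRNAs, 495 kept direction and side of the threshold, 55 lost the call, 8 gained it and 10 changed sign. The median log2 fold change of all names moved by less than 0.1 under each scaling.

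With 3 mice per age, names counted a few times per library, such as miR-3064-3p and miR-503-5p, allow only coarse ratios.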
